A study of Mus musculus with 20 samples.

Results

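Securin, the product of Pttg1, was examined together with separase (Espl1) and 5 subunits of the cohesin complex (Rad21, Smc1a, Smc3, Stag1 and Stag2), 7 of the 27670 gene names on a whole mouse genome array. All 16 probes that the array names after these genes were taken, 1 for Pttg1 and 2 to 4 for each of the others, and each was spotted once. Pttg1 was chosen by its measured difference between uninjured genotypes in these same arrays, and the other 6 genes were added for their role beside it. The values behind that choice are therefore given below as descriptions, without a test.

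RNA of whole trachea was measured in 20 samples, 5 in each of 4 groups, with 1 one-colour array per sample. The study's methods call the 5 samples of a group biological replicates. Wild-type C57/Bl6 and Myd88KO mice, 4 months old per the labels, were either uninjured controls (WT-control and KO-control) or were taken 3 days after polidocanol given into the trachea (WT-injury and KO-injury). Polidocanol is a detergent that strips the airway epithelium. Myd88 is the adaptor through which most Toll-like receptors and the interleukin-1 receptor signal. The knockout is constitutive. It was back-crossed to C57/Bl6JOlaHsd for several generations and bred as a knockout colony apart from the wild-type one, so that any difference between the colonies cannot be told apart from the loss of Myd88. The sex of single samples is not given in the labels.

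Sister chromatids are held together from replication until anaphase by cohesin, a ring of Smc1a, Smc3 and Rad21 that carries either Stag1 or Stag2. Separase is the protease that opens the ring by cutting Rad21, and securin binds separase and holds it inactive until the anaphase-promoting complex (APC/C), a ubiquitin ligase, marks securin for destruction. Securin and separase are made mainly in dividing cells, whereas cohesin is also needed between divisions for the folding of chromatin, so that its genes are active in resting cells too.

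Levels are log2 intensities relative to the 75th percentile of the same array, which is 0 on this scale. They can be compared between arrays for 1 probe but not between probes. The share of spots well above background was 57.5% to 67.8% over the arrays. A probe was tested if at least 10 of the 20 arrays had it well above background, which 26063 probes met, 15 of them member probes. The second Espl1 probe was well above background on 0 arrays and was not tested. The single Myd88 probe differed between the injured groups by −0.77 (SE 0.14, limma adjusted p = 0.00824). Between the uninjured groups its levels overlapped, at 1.94 to 2.28 in wild-type and 1.60 to 2.04 in Myd88KO arrays (difference −0.21, SE 0.14, adjusted p = 1.00). All markers of the secretory, ciliated and basal epithelium, cartilage and smooth muscle were tested, as were those of thyroid and skeletal muscle, which adjoin it. The array KO-injury-5 stood apart from its group. Its mean correlation over all tested probes was 0.976 with KO-control arrays and 0.944 with the other KO-injury arrays. Its summed neutrophil and macrophage marker level was the lowest of the injured Myd88KO arrays (1.78, others 3.75 to 14.5). Marker sums here and below are not on the log2 scale. They add the intensities of the markers relative to the 75th percentile, so that bright markers weigh most. KO-injury-5 also had the lowest share of spots well above background of the 20 arrays (57.5%). The part of array quality in its values was not tested. The main results for injured Myd88KO tracheas are given with and without it.

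Pttg1 was bright on all 20 arrays, and its probe lies on chromosome 11 from 43377052 to 43377111 in the authors' files, which name no genome build. The RefSeq promoter windows of securin and separase are shown here because the 2 proteins act together in chromatid separation. Beside them stands that of Plk1, the list gene with the largest rise after injury in wild-type. Each runs from 250 bases before to 50 after the annotated start (build GRCm38.p6), 5′ to 3′ on the gene's own strand. Capitals mark the CHR element (TTTGAA) and the CCAAT box (CCAAT), 2 short elements known from promoters of genes that peak in mitosis, searched on both strands, and the 2 do not overlap in these windows.
Pttg1, chr11:43425932-43426231, minus strand: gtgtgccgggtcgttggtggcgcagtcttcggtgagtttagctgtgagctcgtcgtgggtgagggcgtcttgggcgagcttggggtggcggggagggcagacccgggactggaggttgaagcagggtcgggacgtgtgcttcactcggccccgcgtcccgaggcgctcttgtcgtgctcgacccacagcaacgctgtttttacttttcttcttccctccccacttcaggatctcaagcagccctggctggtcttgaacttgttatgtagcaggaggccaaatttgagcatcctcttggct
Espl1, chr15:102296043-102296342, plus strand: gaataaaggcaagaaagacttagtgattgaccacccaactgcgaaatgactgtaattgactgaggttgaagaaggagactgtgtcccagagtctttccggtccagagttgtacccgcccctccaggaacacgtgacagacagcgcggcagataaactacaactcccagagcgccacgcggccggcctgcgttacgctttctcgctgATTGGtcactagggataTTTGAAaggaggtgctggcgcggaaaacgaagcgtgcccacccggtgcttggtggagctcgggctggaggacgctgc
Plk1, chr7:122159185-122159484, plus strand: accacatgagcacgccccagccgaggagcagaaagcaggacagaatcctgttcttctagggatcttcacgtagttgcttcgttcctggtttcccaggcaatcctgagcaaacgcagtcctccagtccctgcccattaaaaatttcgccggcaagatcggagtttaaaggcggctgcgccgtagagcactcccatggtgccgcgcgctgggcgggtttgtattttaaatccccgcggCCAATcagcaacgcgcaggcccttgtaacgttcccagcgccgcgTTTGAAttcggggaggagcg

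The Pttg1 window held neither element, and those of Espl1 and Plk1 held 1 of each. Windows were found for 5 of the 7 members. Smc1a and Stag1 held a CCAAT box and no CHR element, and Smc3 held neither. Over all 32851 windows, 17.9% held a CHR element, 37.4% a CCAAT box and 6.95% both. A match describes the letters and is not evidence of a bound site, and its absence says only that these letters are not in this window.

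Pttg1 was lower in uninjured Myd88KO than in uninjured wild-type tracheas, with a difference of −3.32 on the log2 scale (SE 0.33, 10.0-fold). Its level on the WT-control arrays was 4.94, 4.78, 4.11, 4.54 and 4.94 (replicates 1 to 5, mean 4.66 ± 0.35, SD, n = 5). On the KO-control arrays it was 1.87, 0.84, 0.92, 1.17 and 1.90 (1.34 ± 0.51). No Myd88KO array came near the wild-type range, and the arrays of the groups did not overlap, as for 2.51% of all tested probes. On each of the 5 slides, every one of which held 1 array of each group, the Myd88KO array was the lower one, with differences of −3.94 to −3.05. With limma, 100 of 26063 probes (0.384%) differed between the uninjured groups at an adjusted p under 0.01, and Pttg1 ranked 20 among them by p. The probe just inside that threshold was Kng1 (difference 2.99, SE 0.56) and the one just outside was Srebf1 (0.73, SE 0.14). Since this contrast chose Pttg1, its rank is a description.

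After injury the difference in Pttg1 had the same direction and was smaller. Its level was 4.46, 3.91, 3.91, 4.22 and 4.47 on the WT-injury arrays (4.19 ± 0.28) and 3.80, 3.51, 2.66, 3.30 and 1.56 on the KO-injury arrays (2.97 ± 0.89). The highest Myd88KO array lay just below the lowest wild-type array, so that the groups did not overlap, as for 1.96% of tested probes. The difference was −1.23 (SE 0.33, 95% interval −1.92 to −0.53, a 2.34-fold difference). It did not pass the threshold in the fit over all probes (limma adjusted p = 0.112), where 99 probes (0.38%) did. The injured arrays entered the choice of Pttg1 through the injury comparisons, so that this value is not independent of the choice.

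The slides and the scanning days were examined as batches for the injured comparison. Within the slides of replicates 1 to 5 the difference was −0.66, −0.40, −1.25, −0.91 and −2.90, negative on each of the 5. The slides were scanned on 2 days, and the difference was −0.85 on the first (3 slides) and −1.78 on the second (2 slides). The adjusted p was 0.0882 with the slide as a block and 0.0745 with the scanning day as a block, so that neither changed the call. Without KO-injury-5 the difference was −0.87 (SE 0.27, adjusted p = 0.240). The 4 other KO-injury arrays averaged 3.32 ± 0.48.

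**Figure D1:**
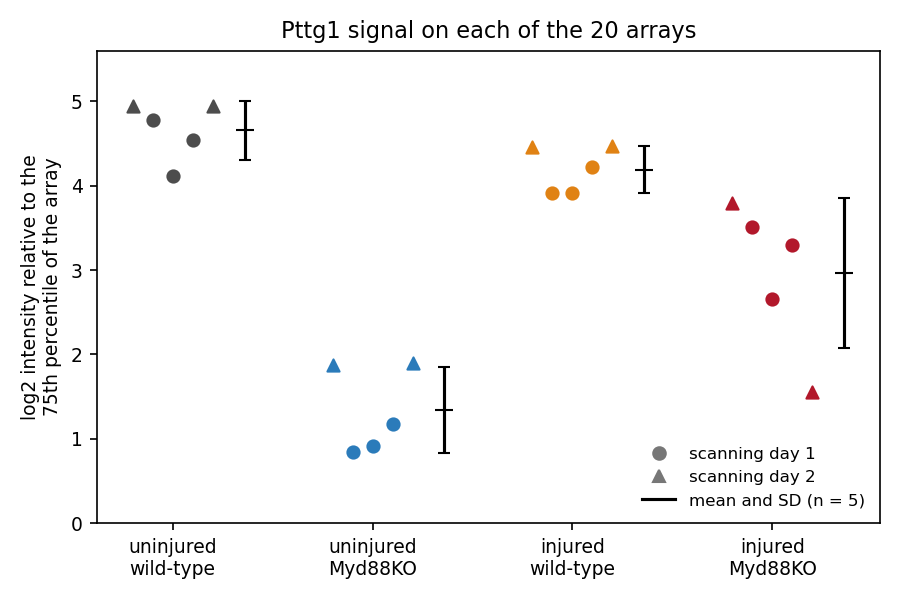
Log2 intensity of Pttg1, relative to the 75th percentile of the array, on each of the 20 arrays in 4 groups (points, circles for scanning day 1 and triangles for day 2), with the mean and SD of each group beside them. All 5 uninjured Myd88KO arrays lie between 0.84 and 1.90, below all wild-type arrays, and 4 of the 5 injured Myd88KO arrays lie between them and the wild-type range, at 2.66 to 3.80.

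The order of the 4 groups by mean Pttg1 level was WT-control, WT-injury, KO-injury and KO-control. Neighbours in this order overlapped at both ends. The lowest WT-control array (4.11) was below the highest WT-injury array (4.47), and the lowest KO-injury array (1.56) was below the highest KO-control array (1.90). In wild-type tracheas the difference between injured and uninjured means was −0.47 (SE 0.33), and the injured array was the lower one on 5 of 5 slides. In Myd88KO tracheas it was 1.63 (SE 0.33), and the injured array was the higher one on 4 of 5 slides, by 1.75 to 2.67. On the slide of KO-injury-5 the difference was −0.33. Without that array the Myd88KO difference was 1.98 (SE 0.27). The difference between the 2 injury responses was 2.10 (SE 0.47), or 2.45 (SE 0.37) without it. The injury comparisons also entered the selection that led to Pttg1, so these values carry no p.

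Separase and the cohesin subunits did not show the uninjured difference of Pttg1. Their 14 tested probes differed between uninjured genotypes by −0.49 to 0.11 (median −0.13), beside a median of 0.04 over all tested probes. Of the 14 estimates 2 were above 0, beside 56.7% of all tested probes, so that most had the direction of Pttg1 at a far smaller size. The arrays of the 2 genotypes overlapped for all 14, beside 2.51% of all tested probes for which they did not. These values are likewise descriptions, since the contrast is the one that chose Pttg1.

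When the injured genotypes were compared, 0 of the 14 separase and cohesin probes passed the threshold with limma, beside 0.38% of all tested probes. With the one-way test named in the study's methods 0 passed, beside 21 of all 26063 probes. At such shares a count of 0 among 14 does not set these probes apart. At an unadjusted p under 0.05 there was 1 with limma, beside 12.5% of all tested probes. Their differences ranged from −0.85 to 1.00 with a median of 0.12, and 11 of 14 estimates were above 0, beside 45.3% of all tested probes. Several of the 14 read the same gene. The arrays of the genotypes overlapped for all 14, beside 1.96% of all tested probes for which they did not. For the brightest probes of the ring subunits the 95% interval of the difference was −0.32 to 0.13 for Rad21 and −0.25 to 0.35 for Smc1a. For Smc3 it was 0.27 to 1.73, above 0, though the limma adjusted p was 0.231. None of these intervals reaches the −1.23 of Pttg1. For Espl1 the difference was −0.85 and its interval, −2.04 to 0.33, includes that value. Without KO-injury-5 the Espl1 difference was −0.35 (SE 0.51, adjusted p = 0.829), and with array weights it was −0.06 (adjusted p = 0.970). Over the 14 probes the range without KO-injury-5 was −0.35 to 1.06, with a median of 0.15 and 0 called. Without WT-injury-4 the median was −0.04 and 6 of the 14 estimates were above 0, so that the excess of positive estimates rested on that array.

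**Figure D2:**
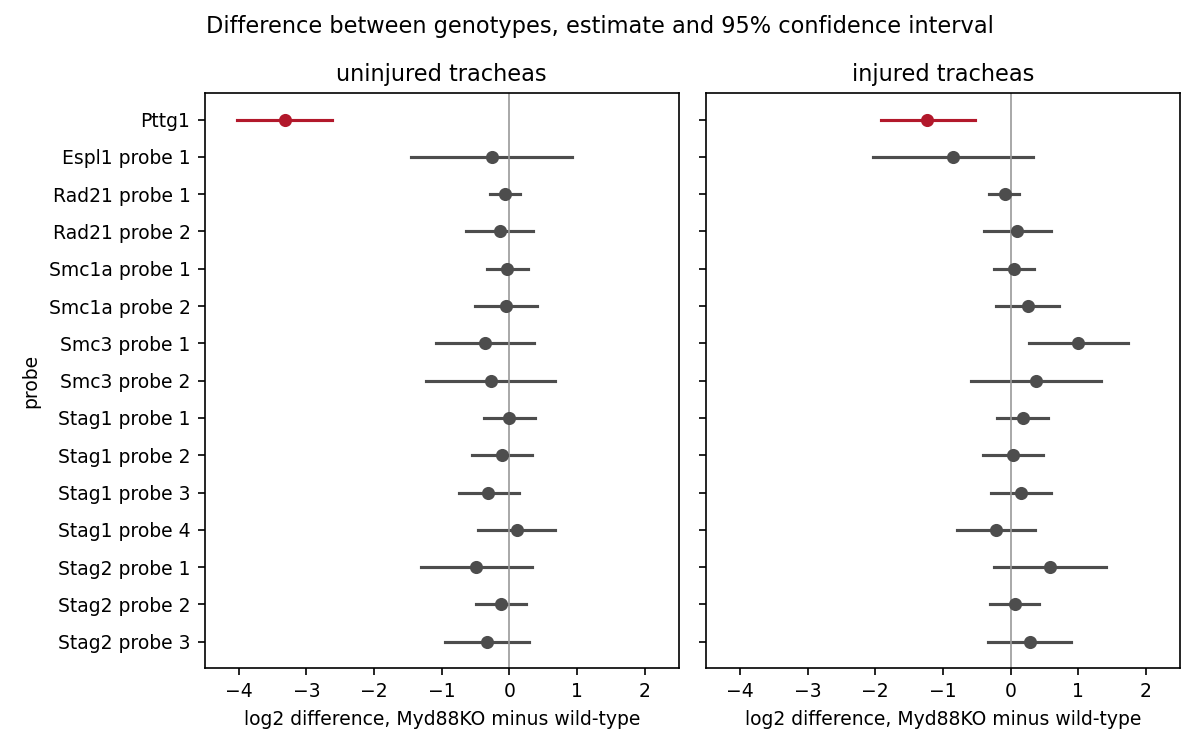
Difference between Myd88KO and wild-type tracheas on the log2 scale (x axis) for the 15 tested probes of the 7 genes (y axis), with 95% confidence intervals from the fit over all arrays, in uninjured (left) and injured (right) tracheas. Pttg1 (red) lies at −3.32 and −1.23, and the separase and cohesin probes lie between −0.49 and 0.11 on the left and between −0.85 and 1.00 on the right.

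Separase was estimated higher after injury in both genotypes and passed the threshold in neither. The first Espl1 probe (chromosome 15, 102309370 to 102309608) had levels of −4.02, −3.47, −1.65, −3.17 and −3.06 on the WT-control arrays and −1.59, −0.66, −0.92, −0.89 and −1.82 on the WT-injury arrays. All wild-type arrays but WT-control-3 thus fell into a lower uninjured and a higher injured range. On the KO-control arrays it was −3.26, −3.61, −3.10, −3.20 and −3.51, and on the KO-injury arrays −3.42, −0.51, −1.69, −0.48 and −4.04. Of the injured Myd88KO arrays, 3 lay at −1.69 or above and 2, replicates 1 and 5, lay within or below the uninjured range. Both were scanned on the second day, as were the 2 lowest WT-injury arrays, replicates 1 and 5. The probe was well above background on 19 of the 20 arrays.

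The Espl1 difference after injury was 1.90 in wild-type (SE 0.57, 3.72-fold, limma adjusted p = 0.0327) and 1.31 in Myd88KO tracheas (SE 0.57, adjusted p = 0.211), neither under 0.01. The injured array was the higher one on 5 of 5 slides in wild-type and on 3 of 5 in Myd88KO. In wild-type the adjusted p was 0.00722 with the scanning day as a block, 0.0171 with the slide as a block, 0.00939 with only the wild-type groups in the fit and 0.00244 with array weights. In Myd88KO array weights gave 2.09 (adjusted p = 0.00281). Without KO-injury-5 the Myd88KO difference was 1.81 (SE 0.51, adjusted p = 0.0260), and without WT-control-3 the wild-type difference was 2.25 (SE 0.56, adjusted p = 0.0142). The difference between the responses was −0.59 (SE 0.80, adjusted p = 0.818), or −0.09 (SE 0.69, adjusted p = 0.970) without KO-injury-5. With a normexp background correction the wild-type difference was 1.08 (adjusted p = 0.0330), so that its size on this dim probe depended on the background treatment.

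Rad21, the subunit that separase cuts, differed little between groups. Its brighter probe (chromosome 15, 52016899 to 52016958) lay at 3.69 to 4.05 on WT-control arrays (median 3.72), 3.61 to 3.82 on KO-control (median 3.77), 3.98 to 4.18 on WT-injury (median 4.04) and 3.89 to 4.09 on KO-injury arrays (median 3.97). All 20 arrays therefore lay between 3.61 and 4.18, and in Myd88KO the injured arrays lay entirely above the uninjured ones. The difference after injury was 0.26 in wild-type (SE 0.11, adjusted p = 0.115) and 0.24 in Myd88KO (SE 0.11, adjusted p = 0.226). This was the only one of the 14 probes whose arrays did not overlap between injured and uninjured Myd88KO tracheas, as for 3.45% of all tested probes. In wild-type none of the 14 did so, beside 12.6% of all tested probes. The second, dimmer Rad21 probe differed by 0.22 and 0.46 in wild-type and Myd88KO.

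The ring subunits Smc1a and Smc3 gave similar results in that no probe passed the threshold. The brighter Smc1a probe (chromosome X, 146820559 to 146820618) ranged from 2.97 to 3.75 over the 20 arrays, with an injury difference of 0.07 in wild-type (SE 0.14) and 0.15 in Myd88KO (SE 0.14). Smc3 was more variable. Its brighter probe (chromosome 19, 53541035 to 53542898) lay at 0.15, −0.36, 1.14, −0.95 and 0.47 on the WT-injury and at 1.25, 0.44, 1.58, 1.34 and 0.83 on the KO-injury arrays, with the Myd88KO array higher on each of the 5 slides. The difference of 1.00 (SE 0.35, unadjusted p = 0.00985, adjusted p = 0.231) ran opposite to that of Pttg1 and did not pass the threshold. The second Smc3 probe differed by 0.38 (SE 0.46), with the Myd88KO array higher on 3 of the 5 slides.

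Stag1 and Stag2, the alternative subunits that bind the ring through Rad21, were measured by 4 and 3 tested probes. Injury differences over the 4 Stag1 probes were −0.14 to 0.24 in wild-type and −0.08 to 0.36 in Myd88KO. Those over the 3 Stag2 probes were −0.60 to −0.12 in wild-type and 0.05 to 0.47 in Myd88KO. None passed the threshold, and all SEs were 0.18 to 0.40.

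A few arrays were low on most cohesin probes of their group. On the brightest Stag2 probe (chromosome X, 37368233 to 37368292), WT-control arrays lay within −0.10 to 0.11, whereas WT-injury arrays gave 0.07, −1.63, 0.16, −2.06 and 0.38. WT-injury-2 and WT-injury-4 were thus far below the other 3. WT-injury-4 was the lowest of its group on 10 of the 13 cohesin probes, KO-control-3 on 10 of 13 and KO-injury-2 on 8 of 13, with mean deviations from their groups of −0.70, −0.42 and −0.31. Their shares of spots well above background were 61.7%, 59.1% and 65.4%, and the part of RNA or array quality in these values was not tested.

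**Figure D3:**
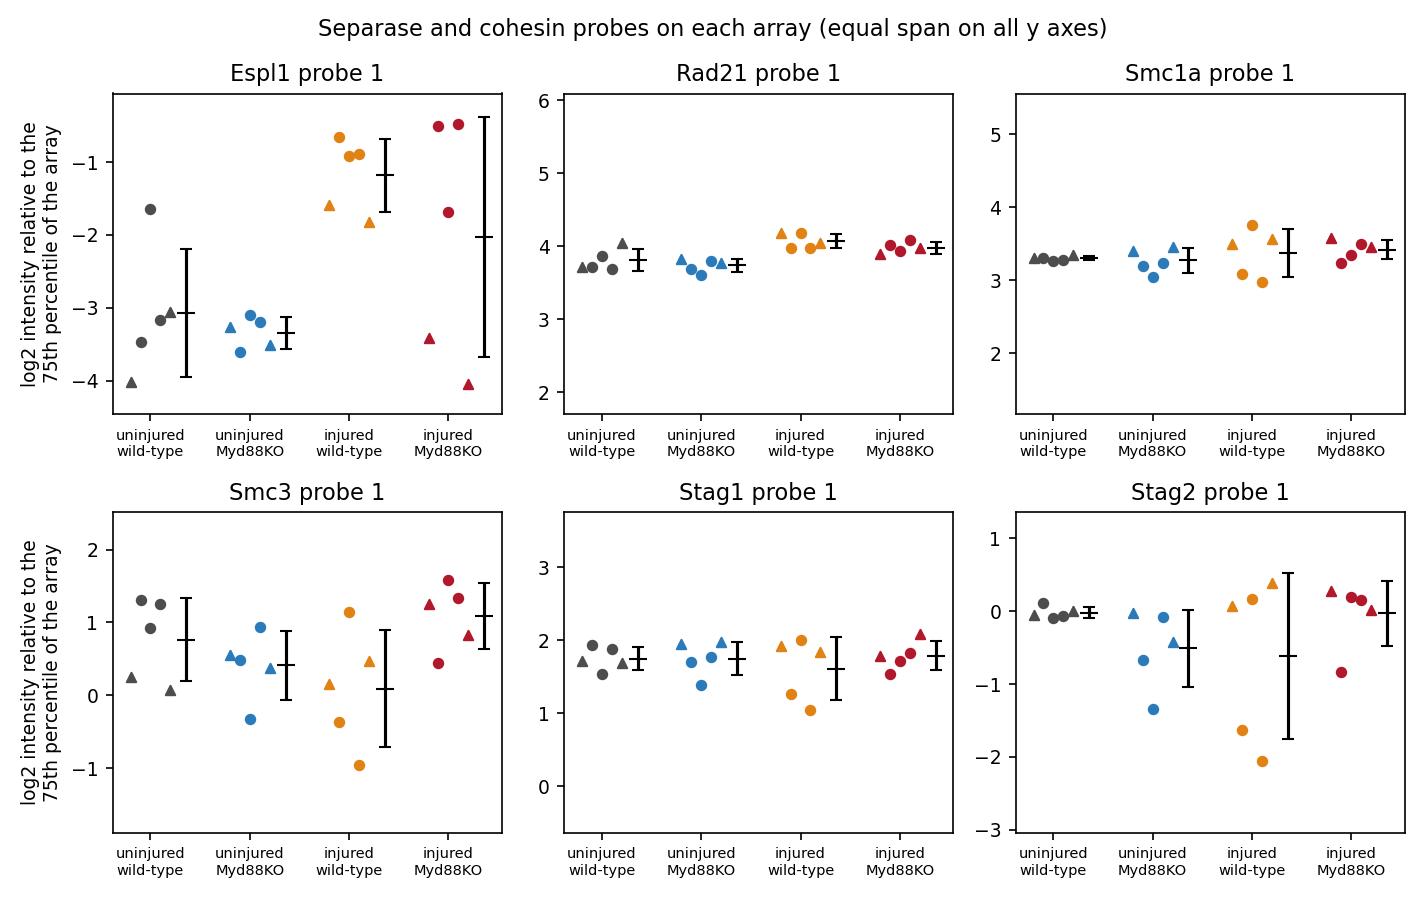
Log2 intensity, relative to the 75th percentile of the array, of the brightest tested probe of separase and of each cohesin subunit on the 20 arrays (circles for scanning day 1, triangles for day 2), with the mean and SD (n = 5) of each group beside them and the same span on every y axis. Espl1 lies at −1.82 to −0.66 on all injured wild-type arrays, Rad21 and Smc1a vary little, and 2 injured wild-type arrays lie at −1.63 and −2.06 on Stag2.

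In each injury comparison, 0 of the 14 separase and cohesin probes passed the threshold with limma or with the methods' one-way test, and 2 of 14 had an unadjusted p under 0.05, in both cases the first probes of Espl1 and Rad21. Over all probes, 5.26% passed with limma in wild-type and 0.376% in Myd88KO tracheas, and the one-way test called 1049 and 0. An unadjusted p under 0.05 was found for 26.4% of all tested probes in wild-type and 19.5% in Myd88KO, beside 14.3% of the 14. At these shares a count of 2 among 14, several of which read the same gene, does not set the 14 apart. The median difference of the 14 was −0.03 in wild-type and 0.31 in Myd88KO, beside 0.00 and −0.07 over all tested probes. In the contrast of the 2 injury responses, 0 of 14 probes passed with limma and 1 had an unadjusted p under 0.05 (the first Smc3 probe, 1.35, SE 0.49, adjusted p = 0.391). There 0 of all 26063 probes (0%) passed, and 2703 had an unadjusted p under 0.05.

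Some other genes of chromatid separation and cell division passed the threshold after injury. Over 7 lists with 66 genes, 62 had a tested probe (100 probes). After injury in wild-type, 27 of the 100 probes, of 24 genes, rose and 0 fell, beside 3.24% of all tested probes that rose. The median difference over the 100 was 0.54, beside 0.00 over all probes. With the methods' one-way test 15 were called. The count was 9 to 13 when any of WT-control-1, WT-control-2, WT-control-4, WT-injury-1, WT-injury-2 or WT-injury-3 was left out, 32 without WT-control-3 and 39 without KO-injury-5.

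The mitotic kinases and B-type cyclins rose together in wild-type. All 12 probes of these 9 genes passed, with a median difference of 2.56, whereas 5 of the 12 passed with the methods' one-way test. With limma, 5 passed when any of WT-control-1, WT-control-2, WT-control-4, WT-injury-1, WT-injury-2 or WT-injury-3 was left out and 9 to 12 without any other array, with medians of 2.40 to 2.91 over all of these fits. The largest were Plk1, the kinase that also helps to remove cohesin from chromosome arms (2.96, SE 0.55, 7.77-fold, adjusted p = 0.00208), and Cdca8, a subunit of the chromosomal passenger complex (2.85, SE 0.60, adjusted p = 0.00451). They were followed by Ccnb1, the cyclin of the mitotic kinase Cdk1 (2.77, SE 0.53, adjusted p = 0.00235), and Birc5, another passenger subunit (2.60, SE 0.54, adjusted p = 0.00439). Plk1 lay at −1.10 to 1.41 on WT-control and 2.02 to 3.19 on WT-injury arrays. Cdca8 and Birc5 were among those that did not pass without any of these 6 wild-type arrays (adjusted p 0.0102 to 0.0163).

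Among the direct partners of securin, separase and cohesin the wild-type response was uneven. Of the APC/C list, which marks securin for destruction, 2 of 30 probes rose, those of its activator Cdc20 (2.34, adjusted p = 0.00245) and of its E2 enzyme Ube2c (2.21, adjusted p = 0.00715), while the APC/C subunits themselves did not pass. Of the spindle assembly checkpoint, which holds the APC/C back until chromosomes are attached, 3 of 10 probes rose, and of the genes that load, acetylate, release or protect cohesin 3 of 20. The latter were sororin (Cdca5, 2.49, adjusted p = 0.00246) and the shugoshins Sgo1 (2.29, adjusted p = 0.00410) and Sgo2a (2.27, adjusted p = 0.00561), which protect cohesin. Condensin gave 1 of 14, proliferation markers 6 of 11, and the meiotic cohesin list 0 of 3. Beside the 3.24% of all tested probes that rose, the counts for the APC/C, condensin and meiotic lists do not set these lists apart. The median difference was 0.14 for the APC/C, 1.17 for the checkpoint and −0.06 for the cohesin regulators. For condensin it was 1.28, with all 14 estimates above 0 and 9 at an unadjusted limma p under 0.05, beside 26.4% of all tested probes. The genes of this paragraph lie outside the rule for naming genes and were chosen after their values were seen.

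In Myd88KO tracheas, 1 of the 100 probes rose and 0 fell, beside 0.134% of all tested probes that rose. It was Aurka, a kinase of the spindle poles, at 0.87, 0.34, 0.09, 0.18 and 0.69 on KO-control and 3.64, 3.27, 2.19, 2.97 and 1.29 on KO-injury arrays (2.23, SE 0.36, adjusted p = 0.00516). The median difference over the 100 was 0.49, and 46 had an unadjusted p under 0.05, beside 19.5% of all probes. The count of 1 rested on single arrays. Without KO-injury-5 it was 31 (4.12% of all probes then passed in either direction), all 12 mitotic kinase and cyclin B probes among them (median 2.63, beside 2.08 with the array), and without WT-control-3 it was 4, whereas without any 1 KO-control array, or without KO-injury-2, KO-injury-3 or KO-injury-4, it was 0. The methods' one-way test called 0, and limma with array weights called 38.

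Between genotypes, 0 of the 100 probes passed in uninjured and 0 in injured tracheas with limma, beside 0.384% and 0.38% of all tested probes. The methods' one-way test also called 0 of the 100, beside 46 and 21 of all 26063 probes. These counts are near the shares over all probes. At an unadjusted p under 0.05 there were 1 and 14 with limma, beside 5.59% and 12.5% of all probes. The median difference was −0.16 in uninjured and −0.27 in injured tracheas. The 12 mitotic kinase and cyclin B probes were all estimated lower in Myd88KO, at −0.99 to −0.13 in uninjured tracheas and −1.26 to −0.26 in injured ones, and for none did the difference pass. The injured differences rested on KO-injury-5. Their median was −0.92 with that array and −0.36 without it (range −0.68 to 0.46), and 1 of the 12 was then estimated higher in Myd88KO. When the 2 injury responses were compared, 0 of 100 passed, as did 0 of all tested probes. Of the 100, 5 had an unadjusted p under 0.05, beside 10.4% of all tested probes.

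**Figure D4:**
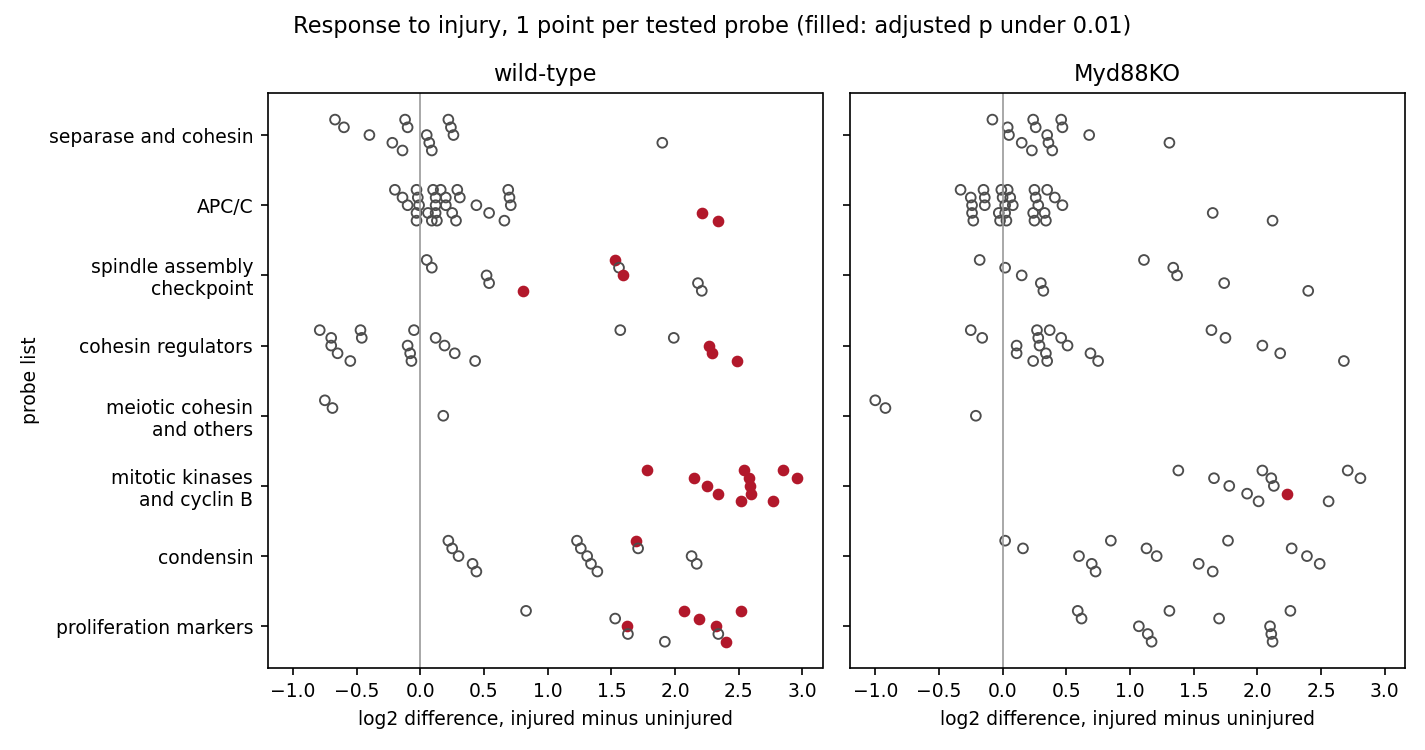
Log2 difference between injured and uninjured tracheas (x axis) for each tested probe of separase and cohesin and of the 7 lists (y axis), in wild-type (left) and Myd88KO (right), with probes at an adjusted p under 0.01 filled in red. The 12 mitotic kinase and cyclin B probes are filled in wild-type, 1 probe, Aurka, is filled in Myd88KO, and none of the 14 separase and cohesin probes is filled.

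Pttg1 was also set beside the mitotic genes array by array. The injury comparisons entered the choice of Pttg1, and the arrays divide largely by group. The values are therefore a description, and whether the relation differs between genotypes was not tested. The mean level of the 12 mitotic probes, relative to its WT-control mean, was −0.67 to 1.40 on WT-control, −0.76 to −0.15 on KO-control, 1.94 to 2.83 on WT-injury and −0.56 to 2.79 on KO-injury arrays. In Myd88KO, the 6 arrays below 0 (the 5 controls and KO-injury-5, at −0.56) had Pttg1 at 0.84 to 1.90, and the 4 at 1.64 to 2.79 had Pttg1 at 2.66 to 3.80. In wild-type, Pttg1 stayed between 3.91 and 4.94 over the whole mitotic range, and WT-control-3, whose mitotic level was 1.40, had the lowest Pttg1 of its group. Espl1 was at −1.82 or above on 9 of the 10 arrays with a mitotic level of 1.40 or more and at −3.06 or below on the other 10 arrays. The exception was KO-injury-1, with a mitotic level of 1.82 and an Espl1 level of −3.42.

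**Figure D5:**
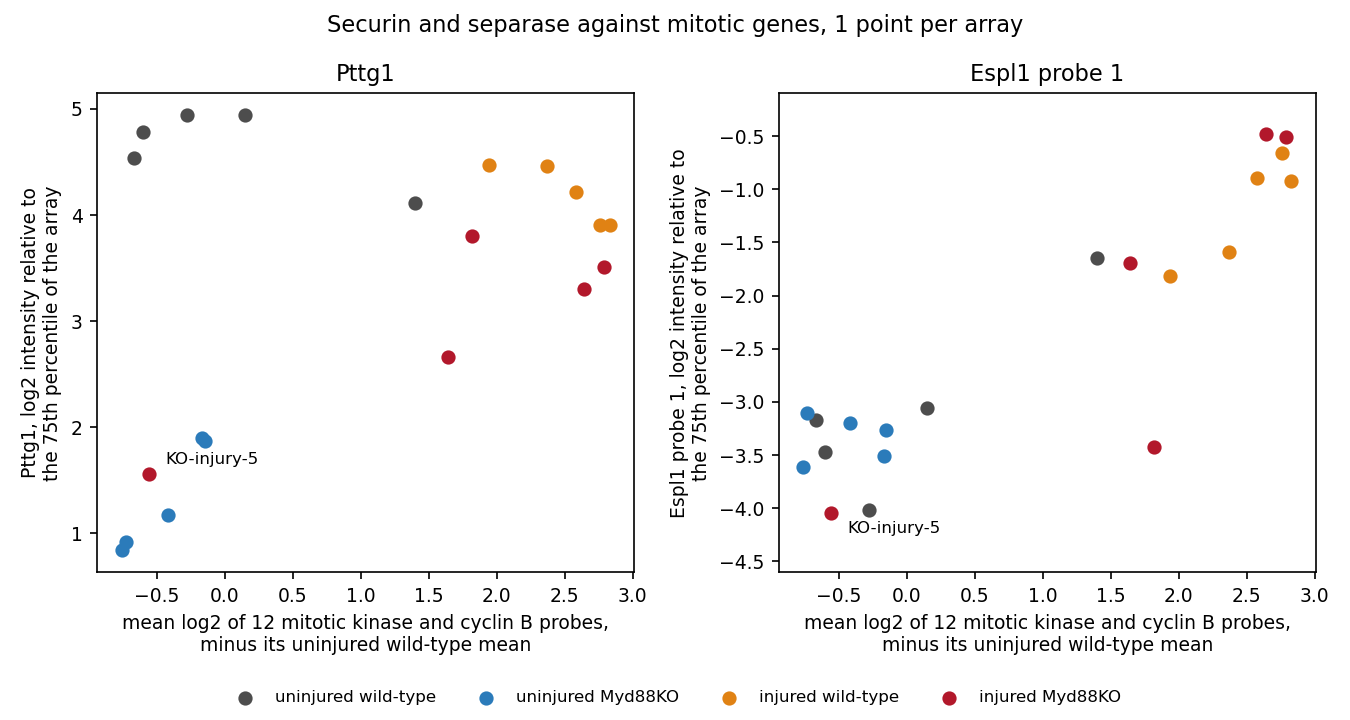
Log2 intensity of Pttg1 (left) and of the first Espl1 probe (right), relative to the 75th percentile of the array, against the mean log2 level of 12 mitotic kinase and cyclin B probes minus its uninjured wild-type mean, with 1 point per array coloured by group. KO-injury-5 lies among the uninjured Myd88KO arrays, at a mitotic level of −0.56 and a Pttg1 level of 1.56, and the wild-type arrays lie between 3.91 and 4.94 on Pttg1 at any mitotic level.

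Markers of other cell types changed in the same arrays. After injury in wild-type, 4 of 5 neutrophil and macrophage genes rose and 2 of 3 secretory genes and 1 of 3 ciliated genes fell, and in Myd88KO 1 secretory gene fell. The summed level of 5 neutrophil and macrophage markers, not on the log2 scale, was 2.34 to 3.58 on WT-control and 7.84 to 24.6 on WT-injury arrays. In Myd88KO it was 1.73 to 3.74 and 1.78 to 14.5. That of 3 secretory markers was 891 to 1750 on WT-control, 386 to 567 on WT-injury, 1020 to 1620 on KO-control and 350 to 1150 on KO-injury arrays, the highest of the last being KO-injury-5. The part of these cells in the mitotic and Espl1 responses was not tested. Between the uninjured groups, 0 of the 11 marker lists had a gene that passed the threshold, beside 0.384% of all tested probes. At such a share a count of 0 among so few genes says little about the cells present. Markers of T cells and thymocytes summed to 0.244 to 1.29 on WT-control and 0.402 to 1.80 on KO-control arrays, and the defining thymocyte gene Rag1 was not detected well enough to be tested. In RNA of a whole organ, fewer cells of a type and less RNA per cell cannot be told apart.

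The promoters of the responding genes were compared with the elements marked above. Of the 22 windows of list genes that rose after injury in wild-type, 54.5% held a CHR element, 72.7% a CCAAT box and 11 of the 22 both. The shares were 30.2%, 58.1% and 23.3% of the 43 windows of list genes that were not called, whether tested or not. Of the 4 largest rises, the windows of Plk1 and Cdca8 held both elements, that of Ccnb1 only CCAAT boxes and that of Birc5 neither. The lists were written from known cell division genes, so these shares are a description. The Espl1 window held both elements, as in the sequence printed above, and the Pttg1 window held neither.

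None of the 5 probes most like Pttg1 over the 20 arrays belonged to the members or the pathway lists. These make up only 14 and 100 of the 26062 other tested probes, so that a count of 0 among 5 does not set them apart. The 5 probes with the highest Pearson r were Ggps1 (r = 0.863), Pold3 (0.863), Zfp236 (0.862), Trim30d (0.861) and Snapc1 (0.856), all estimated lower in Myd88KO in both uninjured and injured tracheas, at −0.57 and −0.35 for Ggps1 and −3.70 and −3.64 for Trim30d. The measure rests on the same arrays and the same group differences that chose Pttg1. The 14 separase and cohesin probes had r between −0.0840 and 0.383 (median 0.167). The 12 mitotic kinase and cyclin B probes had r between 0.357 and 0.513 (median 0.420) and the 100 pathway probes a median of 0.296, beside −0.0280 over all other tested probes. Once each probe was taken relative to its 4 group means, the highest were Wfdc21 (0.908) and probes named ENSMUST00000080362 (0.894), AK076900 (0.884), Rpl24 (0.874) and Rasa3 (0.867), and separase and cohesin lay between −0.232 and 0.332 (median 0.144) and the mitotic probes between 0.342 and 0.560 (median 0.484). The 100 pathway probes lay between −0.572 and 0.774 (median 0.31) on this measure. KO-injury-5 was far below its group on Pttg1 (1.56, group mean 2.97) and on the mean of the mitotic probes (−0.56, group median 1.82). It can therefore weigh heavily in these r, and r without it was not computed. Each r is over 20 arrays that share slides, and is a description.

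The tested neighbours of Pttg1 did not show a difference of its size. On chromosome 11 within 2 Mb of the probe, as placed in the files, 12 other genes had 15 tested probes. Between the uninjured groups 0 of the 15 passed, beside 0.384% of all tested probes, so that this count is near the share over all probes. Their differences ranged from −0.50 to 0.72 with a median of 0.06. On the side of lower positions the only tested probe, 191 kb away, had a difference of 0.05 with an SE of 0.92, so that this side was hardly measured. The 3 largest were those of Ccnjl (0.72, SE 0.29, adjusted p = 0.71), C1qtnf2 (−0.50, SE 0.22, adjusted p = 0.790) and Adra1b (0.43, SE 0.19, adjusted p = 0.791). The nearest, Slu7, has a probe 17.9 kb away, whose difference was −0.19 (SE 0.18, adjusted p = 1.00). Pttg1 itself was read from 1 probe spotted once, with no second Pttg1 probe on the array, and whether that probe matches both colonies equally well was not tested.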

How the data were processed

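Total RNA of 20 whole tracheas was labelled with Cy3 and hybridised to 1 array each. Per the file headers the authors made the deposited intensity values with Agilent Feature Extraction 9.5.1.1, which subtracts the background and removes its spatial trend but does not scale arrays to one another. Their deposited value table holds the same intensity, rounded, and was an alternative. No genome build is given in the sources used here for probe positions.

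Of 45018 spots per array, 1639 controls were left out, as were 1960 values marked as outliers. The remaining 41174 probes were expressed as log2 intensity minus the 75th percentile of the array. Probes well above background on at least 10 of 20 arrays (26063) were fitted with limma 3.58.1 in R 4.3.3, all arrays in 1 model of 4 groups, with Benjamini-Hochberg adjustment within each contrast and a threshold of 0.01 after the study's methods. The fit was tested on simulated data. The study names a one-way test, which was run on pairs of groups as an alternative. With 5 arrays a group, their number limits the precision.

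Arrays of the same replicate number shared a slide (5 slides, 2 scanning days). Over 30 pairs of same-numbered arrays, the correlation of deviations from the group means was −0.262 to 0.476, and 10 of 20 arrays correlated best with one of their own number.

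Probes were named through RefSeq (GRCm38.p6) by accession (22951), symbol (6659) or older symbol (3109), and 8455 kept the array's name. Members were taken by the array's own gene name. Named genes are all member probes, the 4 largest called differences of the pathway lists in each comparison, the 5 probes most correlated with Pttg1 by either measure, the 3 largest differences among neighbours, and markers that move with a result. Exceptions are marked in the text. The members, lists and tests were chosen with earlier results of these data known. Alternatives were the background correction, the value table, quantile normalization, no filter on dim probes, slide or scanning day as a block, only the groups compared, array weights, the one-way test, and leaving out each array.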

Additional observations from a re-analysis of the deposited data

Results flagged for a closer look

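Each of the 15 tested member probes was checked in each of the 4 groups (60 groups of 5 arrays) for 1 array far from the others. In 2 of the 60, the gap between 1 array and its nearest neighbour took more of the group's range than Dixon's limit for 5 arrays, which chance exceeds in about 1 in 20 groups. Both were Stag2 probes on KO-injury-2. On the first the array was at −0.83, next to 0.02 for the nearest array, and on the third it was at −2.45, next to −1.88. The 2 probes read the same gene in the same RNA and are not independent. No member probe moved one way on all slides of 1 genotype and the opposite way on all slides of the other.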

How the results depend on the processing

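The injured difference in Pttg1 kept its direction under all 9 other settings (−1.08 to −1.23, adjusted p 0.0745 to 0.478) and without any 1 array (−0.87 to −1.43, adjusted p 0.0484 to 0.281), and never passed. Under the same settings and without any 1 array, 0 member probes passed between the injured genotypes or in the difference between the injury responses, and 0 pathway probes passed between genotypes, with or without injury. After injury in wild-type, 1 member probe, the first of Espl1, was called when the scanning day was a block, 1 with only the groups compared and 1 with array weights. In Myd88KO, 1 passed with array weights. Pathway probes called after injury in wild-type (27) numbered 45 with array weights and 15 with the one-way test, and 9 to 39 without single arrays. In Myd88KO (1) they numbered 3 with normexp, 2 with quantile normalization, 3 with the slide as replicate block, 5 with the scanning day as a block, 0 with only the groups compared, 38 with array weights, 0 with the one-way test and 0 to 31 without single arrays. Among the fits without single arrays, the highest counts were those without KO-injury-5. The cause of these changes was not tested. With the slide as replicate block the wild-type count was 28, no count given here other than these 2 moved, and the block left the Pttg1 difference at −1.23 (adjusted p = 0.0882). Dim probes, such as those of Espl1, are limited by signal over background.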
